A study of Homo sapiens with 4 samples.

Results

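The Notch genes described here are 10 genes of the canonical Notch pathway: the 4 receptors NOTCH1, NOTCH2, NOTCH3 and NOTCH4, the ligands JAG1, JAG2 and DLL1, and the target genes HES1, HEY1 and HES4. They were found by their Ensembl identifiers among the 43714 genes of a table of RNA sequencing counts, and all 10 passed the filter on low counts, which left 30952 genes to test. The reporter-positive line (MDA-MB-2317TGP-POS) was compared with the reporter-negative line (MDA-MB-2317TGP-NEG), with 2 libraries of each. MDA-MB-231 is an established cell line from a human breast cancer of the triple-negative type, with mesenchymal traits. Cells of both lines carry the stably transfected 7TGP plasmid, in which 7 TCF sites drive EGFP when beta-catenin reaches TCF/LEF factors, and were selected with 3 ug/mL puromycin and grown in DMEM with 10% FBS. Both came from a single transfected population through 8 rounds of expansion and fluorescence sorting, so each is a sorted pool, over 80% EGFP-positive in the reporter-positive line and over 95% EGFP-negative in the reporter-negative line. The treatment label calls the reporter-negative line a control and the reporter-positive line 7TGP vector transfected. No other treatment, genotype or time is given for either line. Any difference between the lines besides reporter activity cannot be told apart from it, and a difference in the share of cells that express a gene cannot be told apart from a difference in RNA per cell.

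Notch receptors are membrane proteins that are cut when a Jagged or Delta ligand on a neighbouring cell binds and pulls on them. Metalloproteases of the ADAM family make a first cut, the gamma-secretase complex then releases the intracellular domain, and that domain joins the DNA-binding protein RBPJ and a Mastermind coactivator in the nucleus, where genes of the HES and HEY families, which encode basic helix-loop-helix repressors, are the classical targets. In breast epithelium the pathway is known for roles in cell fate, and in breast cancer cells it has been studied beside Wnt signalling.

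The promoters of HES1 and HES4 are shown because they hold letters that match the sequence known for RBPJ, the DNA-binding protein of the pathway. Among the 8 Notch genes with a RefSeq promoter (GRCh38.p14, from 250 bases before to 50 after the start; DLL1 and HEY1 were not matched), these were the 2 with any match to the RBPJ letters GTGNGAA on either strand. Each held 2 matches that face each other on opposite strands with 16 bases between them. A match occurred in 13.8% of all 35116 promoters of the same length, and a facing pair with at most 30 bases between in 33 of them, or 0.0940%. The 250 bases before the RefSeq start are printed 5′ to 3′ on the strand of the gene, from chr3:194135898-194136147 (forward strand) for HES1 and chr1:1000098-1000347 (reverse strand) for HES4, with the RBPJ matches in capitals.
HES1: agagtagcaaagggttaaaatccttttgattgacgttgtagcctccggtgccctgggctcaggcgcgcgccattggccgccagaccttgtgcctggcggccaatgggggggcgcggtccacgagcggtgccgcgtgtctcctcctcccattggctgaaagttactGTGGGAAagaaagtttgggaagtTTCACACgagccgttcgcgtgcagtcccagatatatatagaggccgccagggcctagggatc
HES4: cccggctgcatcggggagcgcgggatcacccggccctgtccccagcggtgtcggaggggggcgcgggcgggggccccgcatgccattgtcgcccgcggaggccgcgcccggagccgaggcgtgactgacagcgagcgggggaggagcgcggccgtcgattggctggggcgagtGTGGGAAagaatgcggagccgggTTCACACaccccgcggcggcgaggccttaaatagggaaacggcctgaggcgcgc
The GENCODE start used for coordinates elsewhere lies 3 bases upstream of the RefSeq start for HES1 and 75 bases upstream for HES4, so in HES4 the pair lies at and just inside the GENCODE gene. Counted from the RefSeq start, with -1 the base just before it, the matches began at -85 and -62 in HES1 and at -77 and -54 in HES4. The TCF/LEF letters CTTTGAT, searched on both strands and present in 2.62% of all promoters, were found in none of the 8 windows, which says only that these letters are not in these windows. For NOTCH1 the GENCODE start lies 262 bases downstream of the RefSeq start, outside the window searched. Matching letters are a description and do not show binding.

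The libraries held 62539034 and 55894092 counts in the reporter-positive line and 63034563 and 58429705 counts in the reporter-negative line. VIM, FN1, ZEB1, KRT8 and KRT18, genes that MDA-MB-231 cells express, were counted in every library and summed to 2272 and 2456 CPM (counts per 1000000, TMM-scaled) in reporter-positive and 3780 and 3865 CPM in reporter-negative libraries. VIM made most of that gap, at 1257 and 1343 CPM in reporter-positive and 2714 and 2625 CPM in reporter-negative libraries. KRT8 and KRT18 also fell, by 0.38 and 0.26 on the log2 scale (edgeR, Benjamini-Hochberg adjusted p = 8.88e-04 and 0.0104), while FN1 and ZEB1 did not pass. Luminal breast markers (ESR1, PGR, EPCAM, CDH1) summed to 11.4 to 11.7 CPM in reporter-positive and 10.5 to 10.9 CPM in reporter-negative libraries. Leukocyte markers (PTPRC, CD3E, CD14, CD79A) summed to 6.70 to 6.97 CPM in reporter-positive and 4.79 to 5.58 CPM in reporter-negative libraries, with CD3E and CD79A at 1 to 10 counts, and none of these markers was at 0 in any library. The 4 endothelial markers summed to 69.5 and 85.9 CPM in reporter-positive and 82.3 and 95.9 CPM in reporter-negative libraries and their part in the results was not tested. Nothing in the labels ties libraries to separate cultures, and p-values then reflect only library-to-library spread, which may be technical. The pattern of counts in genes within introns was that of reads counted over introns as well as exons, on either strand, and at every gene they overlap, so overlapping genes with many counts are named beside the results.

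Of the 10 Notch genes, 4 rose (NOTCH2, NOTCH4, JAG1 and HES1), 3 fell (NOTCH1, JAG2 and DLL1) and 3 did not pass (NOTCH3, HEY1 and HES4), by edgeR's quasi-likelihood test with Benjamini-Hochberg adjustment over all genes tested, at 0.05. Among all genes tested 22.4% were called, and among the 16957 protein-coding genes tested 29.5%. The share called in each direction over all genes was 11.6% higher and 10.9% lower. Higher genes made up 51.5% of those calls, and 36.0% with total count scaling, under which the 10 Notch genes kept their calls. The libraries of the lines did not overlap in CPM for 8 of the 10 Notch genes, against 57.7% of all genes tested. The median log2 fold change (reporter-positive over reporter-negative, as throughout) was 0.19 over the 10 genes and -0.0046 over all genes tested. Receptors and ligands each held genes that rose and genes that fell.

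**Figure D1:**
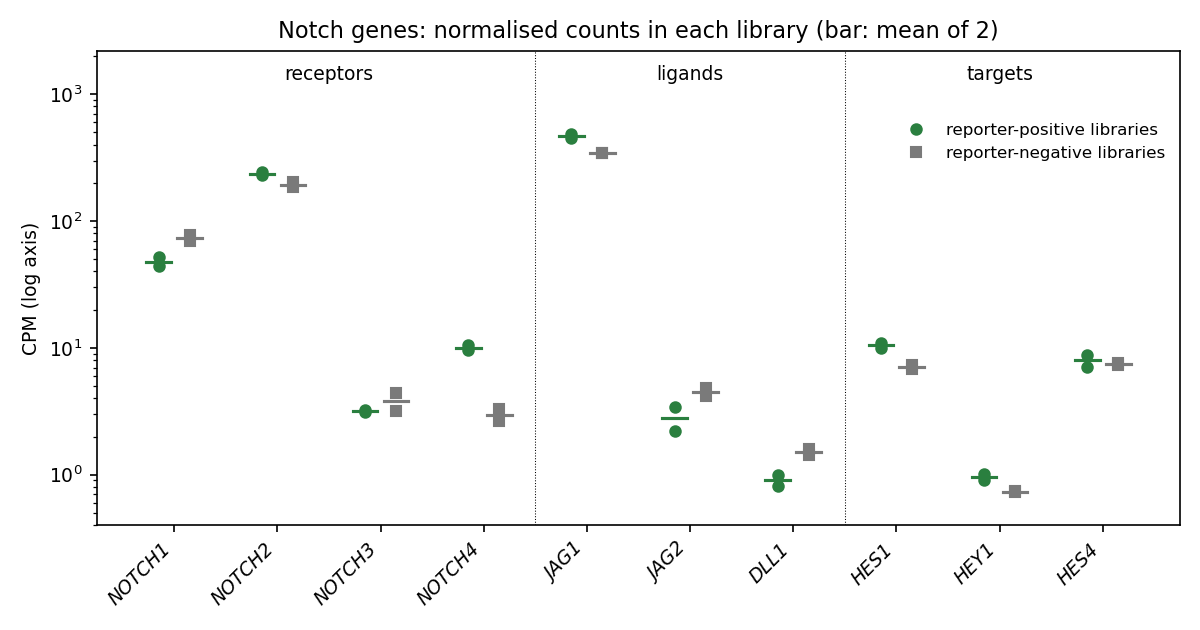
CPM (TMM-scaled counts per 1000000, log axis) of each Notch gene in the 2 reporter-positive libraries (green circles) and the 2 reporter-negative libraries (grey squares), with bars at the mean of 2. JAG1 and NOTCH2 lie highest, NOTCH4 is at 9.54 and 10.6 CPM in reporter-positive against 2.63 and 3.30 CPM in reporter-negative libraries, and the libraries overlap for NOTCH3 and HES4.

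NOTCH4, a receptor known mainly from endothelial cells, showed the largest change among the 10 genes. It had 663 and 500 counts (10.6 and 9.54 CPM) in reporter-positive libraries, against 167 and 203 counts (2.63 and 3.30 CPM) in reporter-negative libraries. Both reporter-positive libraries lay above both reporter-negative ones, and the lines did not come near each other. NOTCH4 rose 3.39-fold, at a log2 fold change of 1.76 (standard error 0.14, edgeR, Benjamini-Hochberg adjusted p = 7.04e-09). That log2 fold change stayed between 1.61 and 1.93 under every alternative that tested it. The alternatives that deal with overlapping genes did not test NOTCH4, which overlaps a gene with more counts.

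NOTCH4 lies on chromosome 6 (32194843 to 32224067, GRCh38, reverse strand), and its 3′ end overlaps GPSM3, a gene on the same strand, over 681 bases. GPSM3, which encodes a G protein signalling modulator, had 2718 and 2466 counts in reporter-positive and 2256 and 2235 counts in reporter-negative libraries and rose 1.26-fold (edgeR, Benjamini-Hochberg adjusted p = 0.00255). NOTCH4 counts were 0.244 and 0.203 of those of GPSM3 in reporter-positive libraries and 0.0740 and 0.0908 in reporter-negative libraries. Mean CPM in reporter-positive and reporter-negative libraries was 10.0 and 2.97 for NOTCH4, and 45.2 and 36.0 for GPSM3. A read in the shared bases was taken as counted at both genes, so more such reads would also raise this ratio. How many NOTCH4 counts come from reads in the shared bases was not tested, and the ratio cannot tell. Of 131 genes tested within 1 Mb that do not overlap NOTCH4, 12 were higher, 43 were lower and the others did not pass, with a median log2 fold change of -0.20. Among the endothelial markers, CDH5 was at 0.430 and 0.363 CPM in reporter-positive and 0.189 and 0.293 CPM in reporter-negative libraries, and VWF at 1.26 and 1.11 CPM in reporter-positive and 0.913 and 1.55 CPM in reporter-negative libraries. KDR rose 1.31-fold, with 8.31 and 9.22 CPM in reporter-positive and 5.92 and 7.44 CPM in reporter-negative libraries (edgeR, Benjamini-Hochberg adjusted p = 0.0302). PECAM1, the most abundant of the 4, was at 75.9 and 58.9 CPM in reporter-positive and 88.9 and 73.0 CPM in reporter-negative libraries and did not pass (log2 fold change -0.26; edgeR, Benjamini-Hochberg adjusted p = 0.222). The part of these markers in the NOTCH4 result was not tested.

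NOTCH1, the receptor best known from T cell leukaemia, had 3245 and 2305 counts (51.7 and 44.0 CPM) in reporter-positive libraries, against 4933 and 4244 counts (77.7 and 69.1 CPM) in reporter-negative libraries. The libraries did not overlap. NOTCH1 fell by 0.62 on the log2 scale (standard error 0.08; edgeR, Benjamini-Hochberg adjusted p = 2.79e-05), and its call held under every alternative that tested it. It lies on chromosome 9 (136494433 to 136545786, GRCh38, reverse strand) and its span holds the antisense gene ENSG00000227512, which had 22 to 44 counts over the 4 libraries. With those counts subtracted, NOTCH1 still fell by 0.62 (adjusted p = 2.40e-05 by the same edgeR test). The genes around it were lower as well: of 94 genes tested within 1 Mb and not overlapping NOTCH1, 64 were lower, with a median log2 fold change of -0.47. NOTCH1 thus sat 0.62 down in a neighbourhood that sat 0.47 down, and whether the position bears on NOTCH1 was not tested.

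NOTCH2 was the receptor with the most counts, 15232 and 12078 (243 and 231 CPM) in reporter-positive libraries, against 12856 and 11296 (202 and 184 CPM) in reporter-negative libraries. The libraries did not overlap, but the step was small. NOTCH2 rose 1.22-fold, at a log2 fold change of 0.29 (standard error 0.08; edgeR, Benjamini-Hochberg adjusted p = 0.00788). That call was lost without reporter-negative library 1 (log2 fold change 0.37, adjusted p = 0.0815) and without reporter-negative library 2 (0.22, adjusted p = 0.382, both by the same edgeR test).

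NOTCH2 lies on chromosome 1 (119911553 to 120069626, GRCh38, reverse strand) and shares near-identical sequence with NOTCH2NLA, a human-specific partial copy elsewhere on chromosome 1, so reads may have been split between them. NOTCH2NLA had 7180 and 5737 counts in reporter-positive and 5347 and 4361 counts in reporter-negative libraries and rose 1.44-fold (edgeR, Benjamini-Hochberg adjusted p = 6.69e-05). With the counts of both genes summed, the log2 fold change was 0.36 (edgeR, Benjamini-Hochberg adjusted p = 0.00211). Within 1 Mb of NOTCH2, of 30 genes tested, 5 were higher and 1 lower, with a median log2 fold change of 0.08.

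NOTCH3, a receptor of vascular smooth muscle that is also amplified in some carcinomas, had 204 and 165 counts (3.25 and 3.15 CPM) in reporter-positive and 201 and 270 counts (3.17 and 4.40 CPM) in reporter-negative libraries. The libraries overlapped, and reporter-negative library 2 stood above the other 3. The log2 fold change was -0.24 with a 95% interval of -0.60 to 0.12 (edgeR, Benjamini-Hochberg adjusted p = 0.387), and without reporter-negative library 2 it was 0.01. NOTCH3 lies on chromosome 19 (15159038 to 15200981, GRCh38, reverse strand), and of 57 genes tested within 1 Mb 3 were higher and 5 lower.

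**Figure D2:**
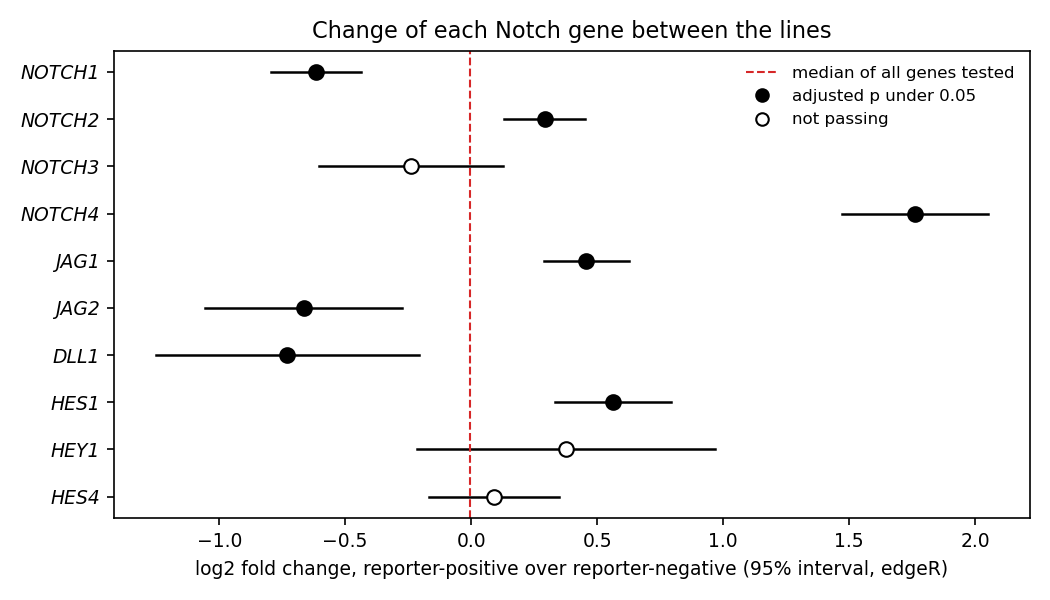
Log2 fold change of each Notch gene (reporter-positive over reporter-negative) with its 95% interval from edgeR; filled points passed an adjusted p of 0.05 and the dashed line is the median of all genes tested. NOTCH4 stands at 1.76, the other genes that passed lie between -0.73 and 0.56, and the intervals of NOTCH3, HEY1 and HES4 cross 0.

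Shares of the 4 receptors' counts within a library do not depend on the scaling between libraries. NOTCH1 made up 16.8% and 15.3% of receptor counts in reporter-positive libraries, against 27.2% and 26.5% in reporter-negative libraries. NOTCH2 made up 78.7% and 80.3% in reporter-positive and 70.8% and 70.5% in reporter-negative libraries. NOTCH4 made up 3.43% and 3.32% in reporter-positive and 0.920% and 1.27% in reporter-negative libraries, and NOTCH3 made up 1.05% to 1.69% over all 4. Counts of NOTCH1 were 0.213 and 0.191 of those of NOTCH2 in reporter-positive libraries and 0.384 and 0.376 in reporter-negative libraries, and NOTCH4 had more counts than NOTCH3 in both reporter-positive libraries (3.25 and 3.03 times) and fewer in both reporter-negative ones (0.831 and 0.752 times). With 2 libraries against 2, an exact two-sided permutation test of such a share cannot go below p = 0.333, so none was run. These are shares of counts over genes of different length, not of receptor molecules. NOTCH4 counts may include reads in the bases shared with GPSM3, and how many was not tested.

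**Figure D3:**
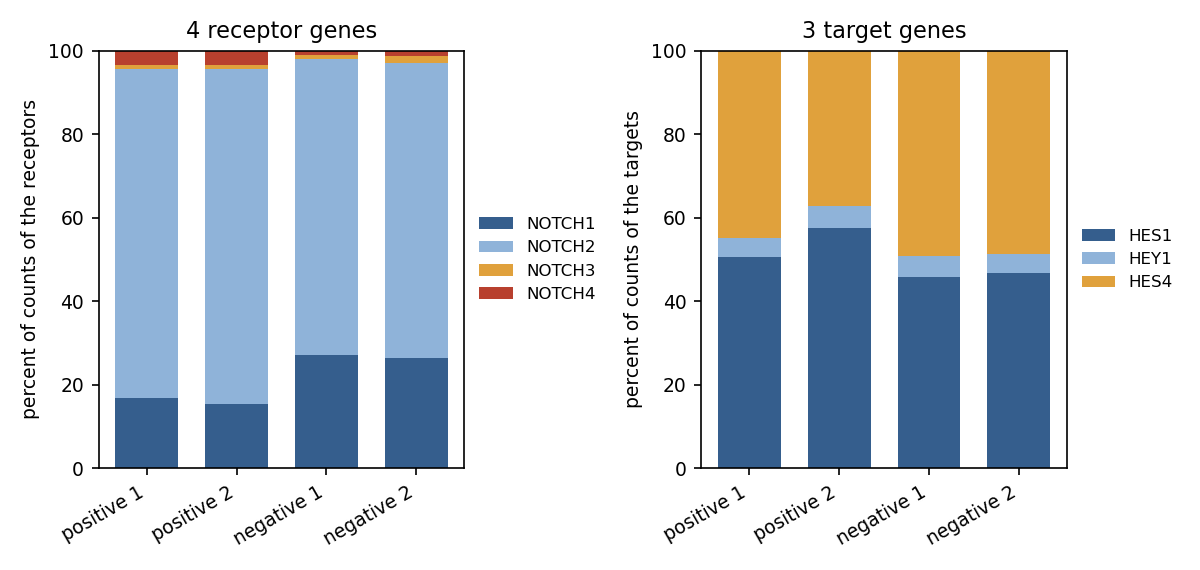
Percent of the summed counts of the 4 receptor genes (left) and the 3 target genes (right) that fell on each gene, with 1 bar per library and the reporter-positive libraries on the left of each panel. NOTCH1 takes 16.8% and 15.3% of receptor counts in reporter-positive against 27.2% and 26.5% in reporter-negative libraries, and HES1 takes 50.6% and 57.5% of target counts in reporter-positive against 45.8% and 46.7% in reporter-negative libraries.

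Among the ligands, JAG1, which encodes Jagged-1, a ligand known from bone metastasis of breast cancer, was far ahead. It had 28453 and 25565 counts (453 and 488 CPM) in reporter-positive libraries, against 21872 and 20957 counts (344 and 341 CPM) in reporter-negative libraries. The libraries did not overlap. JAG1 rose 1.37-fold, at a log2 fold change of 0.46 (standard error 0.08; edgeR, Benjamini-Hochberg adjusted p = 2.29e-04), and held its call under each alternative that tested it, with adjusted p up to 0.0469. It lies on chromosome 20 (10637684 to 10673999, GRCh38, reverse strand). The long antisense gene ENSG00000270792 overlaps its first 1072 bases and had 3294 and 3042 counts in reporter-positive and 2532 and 2586 counts in reporter-negative libraries. With all of those subtracted, JAG1 had a log2 fold change of 0.46 (edgeR, Benjamini-Hochberg adjusted p = 1.71e-04). The 14 other genes tested within 1 Mb of JAG1 had a median log2 fold change of 0.04. JAG1 held 99.0% and 99.4% of the counts of the 3 ligands in reporter-positive and 98.2% and 98.4% in reporter-negative libraries.

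JAG2, the gene of the related ligand Jagged-2, had 214 and 116 counts (3.41 and 2.21 CPM) in reporter-positive libraries, against 304 and 257 counts (4.79 and 4.18 CPM) in reporter-negative libraries. Both reporter-positive libraries lay below both reporter-negative ones, and reporter-positive library 2 was the lowest. JAG2 fell by 0.66 on the log2 scale (standard error 0.19; edgeR, Benjamini-Hochberg adjusted p = 0.0140). Without reporter-positive library 1 the log2 fold change was -1.02. The call was lost without reporter-positive library 2 (-0.40, adjusted p = 0.0800) and without reporter-negative library 1 (-0.56, adjusted p = 0.0848, both by the same edgeR test).

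JAG2 lies on chromosome 14 (105140981 to 105168824, GRCh38, reverse strand), where 16631 bases of it are also covered by ENSG00000257622, a noncoding gene on the same strand. ENSG00000257622 had more counts, 461 and 292 in reporter-positive and 646 and 621 in reporter-negative libraries, and fell by 0.65 (edgeR, Benjamini-Hochberg adjusted p = 6.96e-04). JAG2 counts were 0.464 and 0.397 of those of ENSG00000257622 in reporter-positive libraries and 0.471 and 0.414 in reporter-negative libraries, so this ratio overlapped between the lines. Reads of these genes cannot be told apart. Around JAG2, of 46 genes tested within 1 Mb and not overlapping it, 0 were higher and 8 were lower. Their median log2 fold change was -0.15, and whether the position bears on JAG2 was not tested.

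DLL1, the gene of the ligand Delta-like 1, had few counts, 63 and 43 (1.00 and 0.821 CPM) in reporter-positive libraries, against 102 and 88 (1.61 and 1.43 CPM) in reporter-negative libraries. The libraries did not overlap. DLL1 fell by 0.73 on the log2 scale (standard error 0.25; edgeR, Benjamini-Hochberg adjusted p = 0.0401), close to the threshold. The call was lost with DESeq2 (log2 fold change -0.73, Benjamini-Hochberg adjusted p = 0.133), and without reporter-positive library 2, reporter-negative library 1 or reporter-negative library 2 (log2 fold change -0.61, -0.64 and -0.81, edgeR, Benjamini-Hochberg adjusted p = 0.150, 0.217 and 0.0668). Near DLL1, of 18 genes tested within 1 Mb, 2 were higher and 0 lower. DLL1 lies on chromosome 6 (170282206 to 170306565, GRCh38, reverse strand), and FAM120B, on the opposite strand, covers 15863 bases of it. FAM120B had 2140 and 1657 counts in reporter-positive and 2072 and 1966 counts in reporter-negative libraries, did not pass (log2 fold change 0.02; edgeR, Benjamini-Hochberg adjusted p = 0.878), and some DLL1 counts may be its reads.

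**Figure D4:**
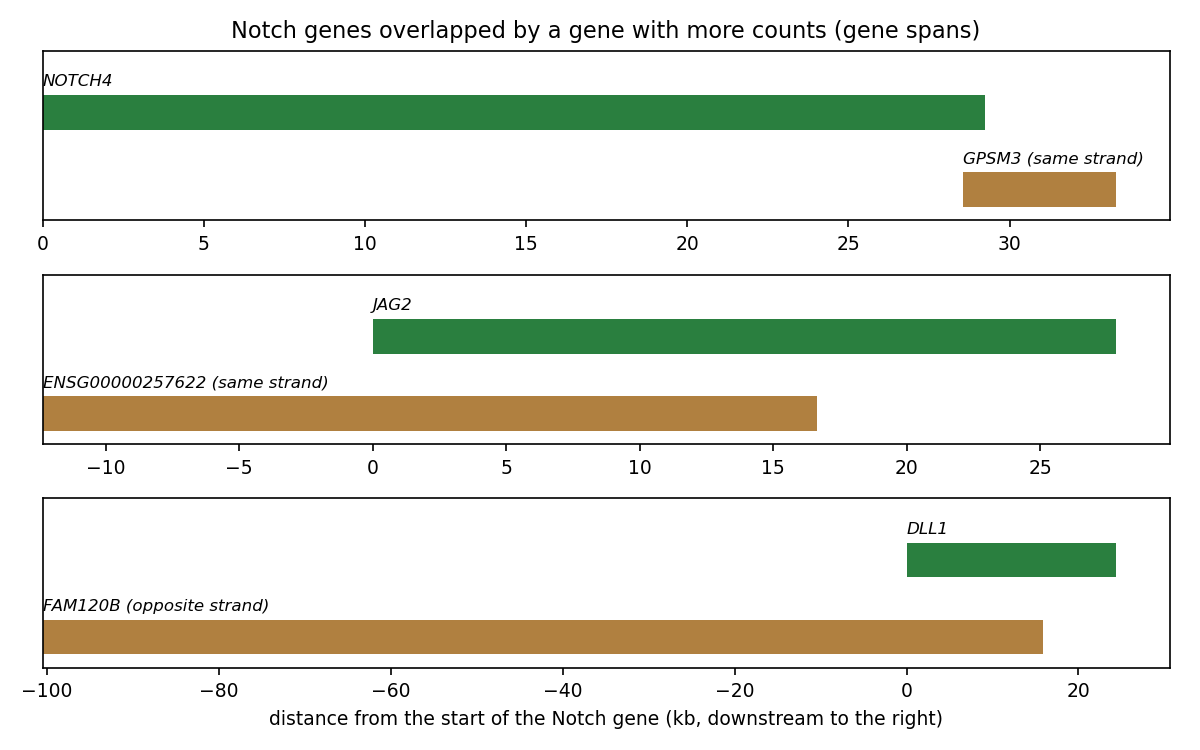
Spans of NOTCH4, JAG2 and DLL1 (green) and of the overlapping gene that had more counts (brown), to scale within each panel, by distance in kb from the start of the Notch gene. GPSM3 shares 681 bases at the end of NOTCH4, ENSG00000257622 shares 16631 bases at the start of JAG2, and FAM120B shares 15863 bases at the start of DLL1.

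Among the targets, HES1, a repressor gene whose product also acts on its own promoter, had 626 and 574 counts (9.97 and 10.96 CPM) in reporter-positive libraries, against 434 and 449 counts (6.83 and 7.31 CPM) in reporter-negative libraries. The libraries did not overlap. HES1 rose 1.48-fold, at a log2 fold change of 0.56 (standard error 0.11; edgeR, Benjamini-Hochberg adjusted p = 6.90e-04), and held its call under all alternatives run, with adjusted p up to 0.0143. It lies on chromosome 3 (194136145 to 194138732, GRCh38, forward strand), overlaps no listed gene, and of 26 genes tested within 1 Mb of it 1 was higher and 1 lower.

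HES4, a related repressor gene without a counterpart in the mouse and with the same paired RBPJ letters before its RefSeq start, had 554 and 371 counts (8.82 and 7.08 CPM) in reporter-positive and 467 and 468 counts (7.35 and 7.62 CPM) in reporter-negative libraries. The reporter-positive libraries lay on either side of the reporter-negative ones. The log2 fold change was 0.09 with a 95% interval of -0.17 to 0.35 (edgeR, Benjamini-Hochberg adjusted p = 0.685). It lies on chromosome 1 (998962 to 1000172, GRCh38, reverse strand) and overlaps no listed gene, and of 111 genes tested within 1 Mb 24 were lower. HES1 had 1.13 and 1.55 times the counts of HES4 in reporter-positive libraries and 0.929 and 0.959 times in reporter-negative libraries. The difference between the changes of HES1 and HES4 was not tested.

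HEY1, a repressor gene of the related HEY family, had 57 and 53 counts (0.908 and 1.01 CPM) in reporter-positive and 47 and 45 counts (0.740 and 0.733 CPM) in reporter-negative libraries. Both reporter-positive libraries lay above both reporter-negative ones. At this depth the difference did not pass: the log2 fold change was 0.38 with a 95% interval of -0.21 to 0.97 (edgeR, Benjamini-Hochberg adjusted p = 0.403). HEY1 lies on chromosome 8 (79764010 to 79767863, GRCh38, reverse strand) and overlaps no listed gene. Its 18 genes tested within 1 Mb held 3 higher and 0 lower, with a median log2 fold change of 0.15.

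Levels of different genes were compared per length. Per kb of annotated exon, JAG1 led in both lines, at 50.6 ± 2.65 CPM per kb in reporter-positive and 36.9 ± 0.247 CPM per kb in reporter-negative libraries (SD, n = 2). NOTCH2 followed at 14.1 ± 0.506 CPM per kb in reporter-positive and 11.5 ± 0.780 CPM per kb in reporter-negative libraries. HES4, HES1 and NOTCH1 came next, at 7.11, 5.07 and 4.61 CPM per kb in reporter-positive libraries and at 6.70, 3.43 and 7.07 CPM per kb in reporter-negative libraries. The libraries of HES1 and NOTCH1 overlapped in the reporter-positive line and those of NOTCH1 and HES4 in the reporter-negative line. The other 5 genes lay between 0.283 and 1.03 CPM per kb in reporter-positive libraries, where NOTCH4 was the highest of them and DLL1 and HEY1, whose libraries overlapped, the lowest. In reporter-negative libraries they lay between 0.228 and 0.701 CPM per kb, with JAG2 the highest and HEY1 the lowest. NOTCH4 thus ranked 6 of 10 in the reporter-positive line and 9 of 10 in the reporter-negative line, where its libraries overlapped those of NOTCH3. These ranks take in any NOTCH4 counts from the bases shared with GPSM3. Because introns were counted too, levels were also taken per kb of the whole span: JAG1 again led, at 12.5 and 13.4 CPM per kb in the 2 reporter-positive libraries and a mean of 9.44 CPM per kb in the reporter-negative line. HES4 then ranked 2, at means of 6.57 CPM per kb in the reporter-positive and 6.18 CPM per kb in the reporter-negative line. NOTCH2 ranked 4 in the reporter-positive line (1.53 and 1.46 CPM per kb) and 5 in the reporter-negative line (1.28 and 1.16 CPM per kb), so the order of the long receptor genes against the short targets depends on that choice.

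A further 65 genes of the pathway were listed by role, and 59 of them could be tested. Of these, 9 rose, 12 fell and 38 did not pass, or 35.6% called, beside 22.4% of all genes and 29.5% of protein-coding genes tested. Their median log2 fold change was -0.06. Genes within 1 Mb were compared for the Notch genes described above, but not for these listed genes. Whether the position bears on their calls was therefore not tested. This holds for EPN2 and NCOR1, which rose and both lie on chromosome 17 (from 19215615 and 16029157, GRCh38). It holds for APH1B and TLE3, which fell and both lie on chromosome 15 (from 63276018 and 70047790). The same is true of DLK2, which fell and lies on chromosome 6, and of the other called genes. The count that rose was 5 with total count scaling and 5 without reporter-negative library 2, and the count that fell was 7 without reporter-negative library 1.

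Of the other ligands and ligand-like genes, 4 of 6 could be tested, 2 rose and 1 fell. DNER, a neuronal ligand-like gene, had 388 and 304 counts in reporter-positive and 196 and 147 counts in reporter-negative libraries and rose 2.18-fold (edgeR, Benjamini-Hochberg adjusted p = 1.51e-05). CNTN1, a neuronal adhesion gene whose product can bind Notch, rose 1.36-fold (edgeR, Benjamini-Hochberg adjusted p = 0.0188; lost without reporter-positive library 2, reporter-negative library 1 or reporter-negative library 2, at adjusted p = 0.0730, 0.0645 and 0.197, and with total count scaling, at 0.0887). DLK2, a noncanonical ligand gene, fell by 1.11 on the log2 scale (edgeR, Benjamini-Hochberg adjusted p = 6.55e-06) and overlaps ABCC10, whose counts were 788% of its own. DLL4 had 20 to 35 counts in each library and did not pass, and DLL3 and DLK1 had at most 7 counts in any library (all 3 named after their values were seen).

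Of the 9 genes of receptor cleavage, 1 rose, 2 fell and 6 did not pass. The gamma-secretase subunit gene APH1B fell by 0.58 (edgeR, Benjamini-Hochberg adjusted p = 4.61e-04). ADAM10, the gene of the protease that cuts ligand-bound Notch, had 107 and 104 CPM in reporter-positive and 129 and 125 CPM in reporter-negative libraries and fell by 0.26 (edgeR, Benjamini-Hochberg adjusted p = 0.00981; 0.278 without reporter-negative library 1 and 0.132 without reporter-negative library 2). ADAM17, a related protease gene overlapped by IAH1 with 63.6% of its counts, rose 1.18-fold (edgeR, Benjamini-Hochberg adjusted p = 0.0195; 0.239 and 0.274 without those libraries, and 0.130 with total count scaling). Of the 5 genes that glycosylate the receptor, 0 passed by edgeR, 0 by DESeq2 and 0 by limma-voom, and 2 had an unadjusted edgeR p under 0.05. POFUT1, the O-fucosyltransferase gene, was at 67.2 and 72.7 CPM in reporter-positive and 78.6 and 75.7 CPM in reporter-negative libraries. The Fringe gene LFNG was at 63.3 and 57.6 CPM in reporter-positive and 64.9 and 67.5 CPM in reporter-negative libraries.

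Of the 6 genes of ligand ubiquitination and endocytosis, EPN2, an epsin gene, rose 1.73-fold, with 102 and 105 CPM in reporter-positive and 61.3 and 58.7 CPM in reporter-negative libraries (edgeR, Benjamini-Hochberg adjusted p = 5.62e-08), and the other 5 did not pass. AC124066.1 overlaps EPN2 with 26.5% of its counts. Of the 9 genes of receptor turnover, 2 rose, 1 fell and 6 did not pass. The Deltex family genes DTX3 and DTX4 rose 1.72-fold and 2.07-fold (edgeR, Benjamini-Hochberg adjusted p = 5.17e-06 and 0.00847), and ITCH, a ubiquitin ligase gene, fell by 0.30 (edgeR, Benjamini-Hochberg adjusted p = 0.00328). DTX4 had 35 to 94 counts and did not pass without reporter-positive library 1 (edgeR adjusted p = 0.0607) or reporter-negative library 2 (0.0683), and ITCH lost its call without reporter-negative library 1 or 2 (0.113 and 0.0697).

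The list of nuclear activation held 9 genes, RBPJ and coactivator genes, of which 3 fell and 6 did not pass. RBPJ itself was at 219 and 249 CPM in reporter-positive and 242 and 240 CPM in reporter-negative libraries (log2 fold change -0.04, 95% interval -0.21 to 0.12; edgeR, Benjamini-Hochberg adjusted p = 0.785; named after its values were seen). The histone acetyltransferase genes KAT2B, CREBBP and EP300 fell by 0.44, 0.36 and 0.31 (edgeR, Benjamini-Hochberg adjusted p = 2.02e-04, 0.0271 and 0.0483). Without reporter-negative library 1, CREBBP and EP300 did not pass (adjusted p = 0.179 for both by the same test), and without reporter-positive library 2 EP300 did not pass (adjusted p = 0.143, log2 fold change -0.15), while CREBBP stood at -0.21. Without reporter-positive library 1 EP300 stood at -0.50. EP300 also missed the threshold with total count scaling (adjusted p = 0.0696) and with a filter at 1 CPM (0.0612), and ENSG00000232754 overlaps it with 32.7% of its counts.

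Of the 12 corepressor genes, 3 rose, 4 fell and 5 did not pass. NCOR1, the gene of a corepressor that RBPJ can recruit, rose 1.54-fold, with 211 and 215 CPM in reporter-positive and 140 and 137 CPM in reporter-negative libraries (edgeR, Benjamini-Hochberg adjusted p = 1.75e-06), and overlaps TTC19, which had 49.5% of its counts. The Groucho family genes TLE2 and TLE3 fell by 1.32 and 0.47 (edgeR, Benjamini-Hochberg adjusted p = 6.60e-05 and 8.44e-05). Of the other 9 HES and HEY family genes and NRARP, 5 could be tested: HES2 fell by 1.06, with 226 and 192 counts in reporter-positive and 480 and 464 counts in reporter-negative libraries (edgeR, Benjamini-Hochberg adjusted p = 4.24e-06), and 4 did not pass. NRARP, a feedback target of the pathway named after its values were seen, had 65 and 62 counts in reporter-positive and 81 and 100 counts in reporter-negative libraries (log2 fold change -0.39, 95% interval -0.91 to 0.12; edgeR, Benjamini-Hochberg adjusted p = 0.303). HES5 and HEY2, also named after their values were seen, had at most 6 counts in any library. Among the 56 listed genes with a RefSeq promoter, 7 held RBPJ letters and none the facing pair seen in HES1 and HES4. The TCF/LEF letters were held by 2, RBPJ and SNW1. Over all 35116 promoters, 13.8% held RBPJ letters, 0.0940% the facing pair and 2.62% the TCF/LEF letters.

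**Figure D5:**
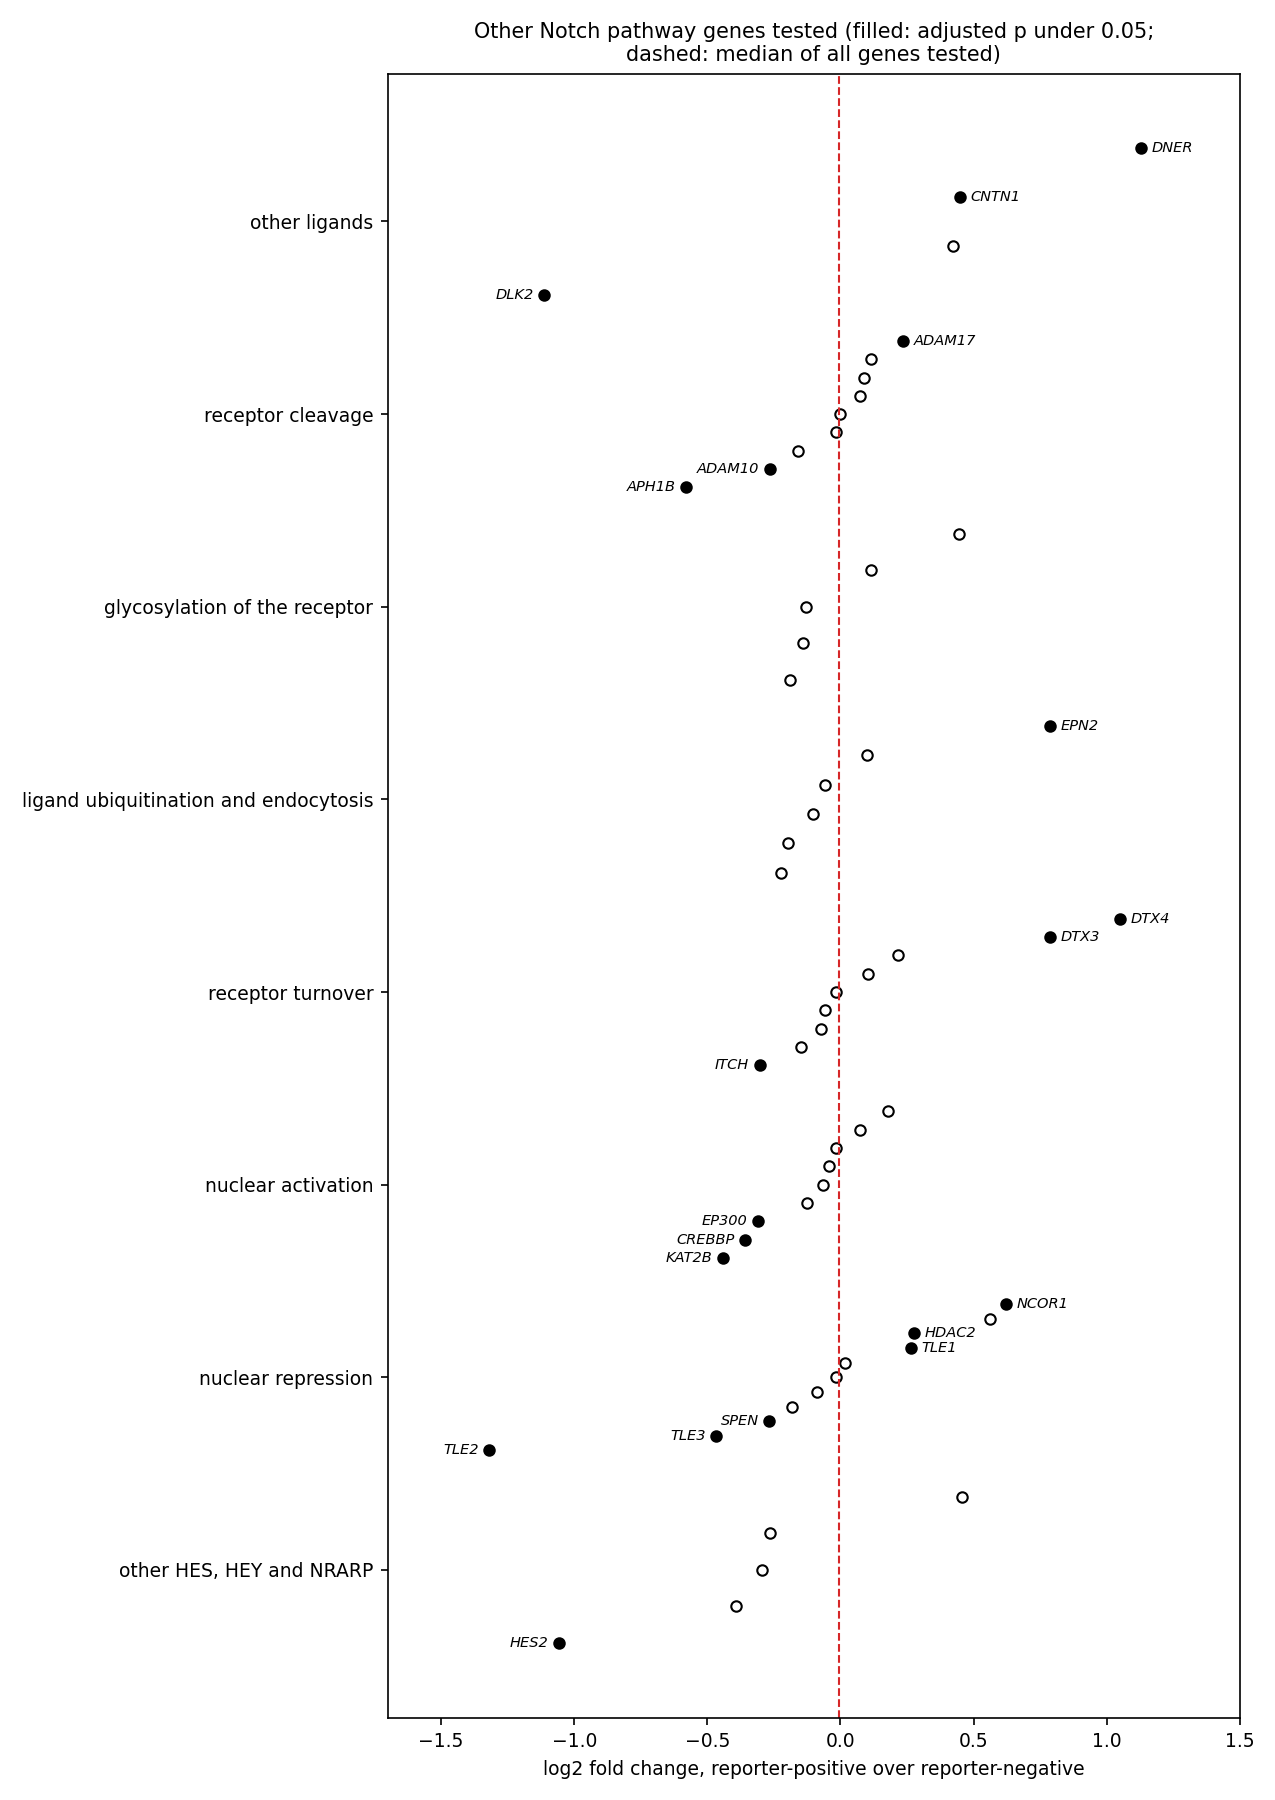
Log2 fold change (reporter-positive over reporter-negative) of 58 of the 59 other Notch pathway genes tested, by role, with genes that passed an adjusted p of 0.05 filled and named, and the median of all genes tested as a dashed line. Called genes lie on both sides in 4 of the 8 roles, from -1.32 for TLE2 to 1.13 for DNER, and no gene of receptor glycosylation is filled.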

How the data were processed

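The authors deposited raw read counts per Ensembl gene for the 4 libraries, used here without change. HISAT2, Bowtie2, DESeq2 and the build hg19 are named, per the submitters' processing notes. For the counter, its annotation and its strand setting, nothing was given in the sources used here. The gene IDs are all in GENCODE release 29, whose GRCh38 coordinates are printed, and promoters are from RefSeq. In all 1493 cases where a gene with at least 100 counts in each library lay in an intron of another, the host's count was at least as high, in 563 with both genes on 1 strand and in 930 on opposite strands, so reads were taken here as counted over whole spans, on both strands and at each gene they overlap.

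Counts were fitted with edgeR 4.0.16 (R 4.3.3) after TMM scaling and filterByExpr (minimum count 10, minimum total 15), by its robust quasi-likelihood F test with a term for the line. P-values were adjusted by Benjamini-Hochberg over all 30952 genes kept, at 0.05. Intervals come from the same fit. Totals of 55894092 to 63034563 counts leave little counting error except for genes of few counts. Alternatives were RLE and total count scaling, other filters, DESeq2 1.42.0, limma-voom (limma 3.58.1), a block, leaving out each library, subtracting or summing overlapping genes, and, chosen after seeing the data, genes without an overlapping gene.

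All 10 Notch genes are named. Of each list, up to 4 called genes with the smallest adjusted p are named, or 2 with the highest CPM, with overlapping genes. 1 gene that this rule names is not reported here. The Notch genes and lists were chosen with earlier results of these data known. Between the libraries of a line, chi-square over its degrees of freedom was 18.9 (reporter-positive) and 36.7 (reporter-negative), beyond sampling noise. Each library was counted as 1 replicate, as the labels number them.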

Additional observations from a re-analysis of the deposited data

How the results depend on the processing

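All 10 Notch genes kept their direction except NOTCH3 and HES4, which had not passed: without 1 library their log2 fold changes ran over -0.453 to 0.0123 for NOTCH3 (above 0 without reporter-negative library 2) and -0.0774 to 0.229 for HES4 (below 0 without reporter-positive library 1). Over 117 refits of single Notch genes, 107 kept direction and side of the threshold, 8 lost the call and 2 turned. Leaving out 1 library gave 3 to 4 Notch genes higher and 1 to 3 lower, 5 to 12 listed pathway genes higher and 7 to 18 lower, and 2333 to 4704 genes higher and 2025 to 4457 lower in the whole table. Such fits assume that the lone library of a line varies like the other line. With total count scaling the median over all genes was -0.09 on the log2 scale, against -0.0046, and gave 2270 higher genes (36.0% of the calls, against 51.5%) and 5 higher pathway genes, where CNTN1, ADAM17, EP300, HDAC2 and TLE1 lost their calls; the 7 Notch calls kept their direction and passed. Of the 10 Notch genes, 4 overlap no listed gene (NOTCH2, HES1, HEY1 and HES4). In a fit of such genes alone 2 of them were higher and 0 lower by edgeR (0 lower also at an unadjusted p under 0.05). NOTCH1, JAG2 and DLL1, which fell in the main fit, each overlap a listed gene and were left out by this choice. The 0 lower therefore says nothing about those falls. The libraries share only a number across lines (correlation of deviations 0.00788 over all genes), and with that number as a replicate block 4 Notch genes were higher and 3 lower, 11 and 13 pathway genes, and 4175 and 4051 genes of the whole table. DLL1 and HEY1 had at most 102 counts in any library, which limits their precision.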
